A study of Mus musculus with 29 samples.

Results

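The genes described here are 9 genes known to respond to muscle wasting or to the loss of nerve contact: Fbxo32, Trim63, Mstn, Chrna1, Chrng, Myog, Runx1, Gadd45a and Ncam1. They were taken by symbol from the deposited table of 24421 genes, and each of the 9 had enough reads to be tested in every comparison. The libraries came from peritoneum, with tumor nodules where there were any, of female C57BL/6J mice. They were 5 to 6 weeks old when divided into groups, before sampling, and were injected intraperitoneally (IP) with YTN16, a mouse gastric cancer cell line. All mice had been injected with these cells, and there was no group without the injection. At 3wk (day 21) there were 5 untreated mice, which received PBS, and 5 dual ICI mice, which received antibodies against PD1 and CTLA4. At 5wk (day 35) there were 5 untreated, 5 anti-PD1, 4 anti-CTLA4 and 5 dual ICI mice. Of the latter, mice 1 and 5 were dual ICI-uncured and mice 2, 3 and 4 were dual ICI-cured. The labels give treatment and day only, so this division rests on taking the replicate numbers of the libraries as the mouse numbers of the study, and the 5 dual ICI mice were also tested as 1 group. Implanted cells are 1 line, so the groups describe this line in 1 mouse strain. The 3wk and 5wk libraries carry different codes in the column names, whose meaning is not given in the sources used here, so time and whatever the codes mark cannot be told apart. By the study's schedule, 5wk mice had also received more doses of antibody or PBS than 3wk mice, and they were older at sampling. Time, age and number of doses cannot be told apart either.

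Skeletal muscle that is unused, starved or cut off from its nerve breaks down its contractile proteins through the ubiquitin and proteasome pathway, and the muscle-specific ubiquitin ligases atrogin-1 (Fbxo32) and MuRF1 (Trim63) are the classic transcripts of that state. Their genes are induced by FoxO transcription factors and by glucocorticoids. A muscle fiber that loses its nerve also returns to a fetal program, in which myogenin (Myog) rises and acetylcholine receptor subunits, among them the fetal gamma subunit (Chrng), are made along the whole fiber instead of only under the nerve ending. The peritoneum lies on the abdominal wall, and the libraries held muscle transcripts.

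Muscle content differed widely between libraries, and it moved with several results below. The summed counts of 12 skeletal muscle markers made up 6.86% to 14.1% of all counts in untreated 3wk mice, 5.17% to 18.6% in untreated 5wk mice, 4.90% and 7.00% in the dual ICI-uncured mice and 19.3% to 20.9% in the dual ICI-cured mice, and none of the 12 was at 0 in any library. Gene levels are therefore given in 2 ways. The first is CPM, counts per 1000000 counts of the TMM-scaled library size, called "per library" for tests. The second is the number of counts per 1000 counts of Ckm, the muscle creatine kinase of the fiber, in the same library, called "per Ckm". An antisense gene in the table overlaps Ckm, and the use of strand in counting is unknown, so the Ckm count may be affected. In bulk tissue, fewer muscle fibers and less RNA per fiber cannot be told apart. The summed level of 8 gastric epithelium markers, which follow the tumor cells, was 863.5 to 3048.4 CPM in untreated 5wk mice and 11.9 to 76.2 CPM in cured mice, where up to 4 of the 8 were at 0. Anti-PD1 mouse 5 stood apart from its group, with 46.6 CPM of these markers against 2244.8 to 2939.6 CPM in the other 4 anti-PD1 mice, and with 18.7% of its counts in the muscle markers. The study's account of its animals includes a cured anti-PD1 mouse, but the labels do not say which, and mouse 5 was kept in the anti-PD1 group. Untreated 5wk mouse 2 held 18.6% in the muscle markers, more than any other untreated mouse.

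Promoter sequences are shown for Trim63, Chrna1 and Chrng because the E-box bound by myogenic factors such as myogenin, and the site bound by FoxO factors, are the elements through which these genes are known to be induced in wasting or denervated muscle. The windows are the 250 bases before the RefSeq start on GRCm38.p6, written 5′ to 3′ on the gene's strand at chr4:134314870-134315119 (+), chr2:73580339-73580588 (−) and chr1:87205561-87205810 (+). Capitals mark CAGCTG, a form of the E-box CANNTG that reads the same on both strands, and TGTTTAC, the reverse complement of the FoxO site GTAAACA.
Trim63: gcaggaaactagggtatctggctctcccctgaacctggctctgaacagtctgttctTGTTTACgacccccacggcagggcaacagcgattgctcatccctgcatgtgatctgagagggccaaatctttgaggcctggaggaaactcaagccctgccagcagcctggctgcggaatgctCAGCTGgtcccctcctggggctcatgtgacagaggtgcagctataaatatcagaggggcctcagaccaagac
Chrna1: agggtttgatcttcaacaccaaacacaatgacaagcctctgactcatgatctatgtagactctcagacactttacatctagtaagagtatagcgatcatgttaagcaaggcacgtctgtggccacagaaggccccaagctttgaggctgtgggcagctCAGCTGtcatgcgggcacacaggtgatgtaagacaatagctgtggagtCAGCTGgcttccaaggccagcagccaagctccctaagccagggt
Chrng: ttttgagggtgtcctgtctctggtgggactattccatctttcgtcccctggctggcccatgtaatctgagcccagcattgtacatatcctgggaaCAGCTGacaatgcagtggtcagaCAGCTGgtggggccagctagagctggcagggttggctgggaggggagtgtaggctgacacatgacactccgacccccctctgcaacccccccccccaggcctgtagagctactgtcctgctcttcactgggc
Counting the base before the start as -1, CAGCTG began at -72 in Trim63, at -92 and -44 in Chrna1 and at -155 and -132 in Chrng, and TGTTTAC began at -194 in Trim63. Of 32851 mouse promoter windows of the same length, 13.0% held CAGCTG, 66.2% held CANNTG, of which CAGCTG is a part, and 3.17% held GTAAACA on either strand. RefSeq windows for Mstn, Myog, Runx1 and Gadd45a held no CAGCTG. Fbxo32 and Ncam1 had no entry. CAGCTG also began at -138 in Chrne, which encodes a receptor subunit of mature muscle, and at -249 in Ckm. These letters were therefore not confined to genes of wasting or denervated muscle. The Chrng window lies inside a longer transcript of the same gene in the GENCODE annotation. Such matches describe letters, and no match says only that these letters are not in the window.

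Fbxo32 and Trim63, the 2 ubiquitin ligases, were the most abundant of the 9 genes per kilobase of exon, with medians of 33.1 and 44.9 CPM per kb in untreated 3wk mice, where Mstn was at 14.8 and Chrng at 0.0357 CPM per kb. Fbxo32 (chromosome 15, 58175879 to 58214932 on GRCm38) encodes atrogin-1, the substrate-binding part of a ligase complex. Its level was 168, 231, 244, 93.8 and 249 CPM in untreated 3wk mice 1 to 5 and 254, 819, 332, 469 and 423 CPM in untreated 5wk mice 1 to 5. The groups did not overlap, although the lowest 5wk mouse lay just above the highest 3wk mouse. Per library, Fbxo32 was 2.34-fold higher at 5wk (log2 fold change 1.22 ± 0.35 (SE), n = 5 and 5), and it was the only 1 of the 9 genes that passed edgeR's quasi-likelihood test (adjusted p = 0.0464). Of all genes tested, 10.8% passed, 6.24% higher and 4.58% lower, and 11.6% of genes did not overlap between the groups. A share of 1 in 9 is close to that background. The call was lost without untreated 5wk mouse 3, 4 or 5, without any 1 of the untreated 3wk mice and with the replicate block, with adjusted p-values up to 0.107.

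Relative to Ckm, Fbxo32 lay at 24.0, 31.4, 35.1, 27.4 and 25.7 counts per 1000 Ckm counts in untreated 3wk mice and at 84.4, 56.1, 92.7, 55.9 and 220.1 in untreated 5wk mice. Every 5wk mouse was above every 3wk mouse, as for 0.837% of genes on this scale. The log2 difference was 1.83 ± 0.55 per Ckm, where the median of all genes was 0.70, and the adjusted p of edgeR was 0.0575. The exact two-sided permutation test of the ratio gave p = 0.00794, below which groups of 5 and 5 cannot go, and after adjustment for the 72 ratios tested it was 0.184. None of the 9 genes passed edgeR per Ckm in this comparison, beside 1.26% of all genes, 1.2% higher and 0.0577% lower. Among the 9, 3 genes (Fbxo32, Trim63 and Chrng) had an unadjusted p under 0.05, and DESeq2 called 1, Fbxo32. Without untreated 5wk mouse 4, or untreated 3wk mouse 3 or 4, edgeR called 2, 1 and 2 genes. Without untreated 5wk mouse 2, the untreated mouse with the largest share of muscle markers, edgeR called Fbxo32, Trim63 and Chrng, with adjusted p-values of 0.00218, 0.0104 and 0.00211. The 1.26% belongs to the edgeR fit with every mouse. Shares of all genes in the refits and by DESeq2 are not given here, so these counts cannot be read as particular to the 9 genes.

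Trim63 (chromosome 4, 134315120 to 134329629) encodes MuRF1, a ligase that sits on the sarcomere and marks myosin for degradation. It was at 101, 128, 130, 57.2 and 128 CPM in untreated 3wk mice and at 88.2, 258, 108, 405 and 216 CPM in untreated 5wk mice. Mice 1 and 3 at 5wk lay within the 3wk range, and the other 3 lay above it. The fold difference of 1.98 per library did not pass edgeR (log2 0.99 ± 0.40, adjusted p = 0.124), and the per Ckm difference of 1.56 ± 0.58 on the log2 scale did not pass either (adjusted p = 0.166).

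**Figure D1:**
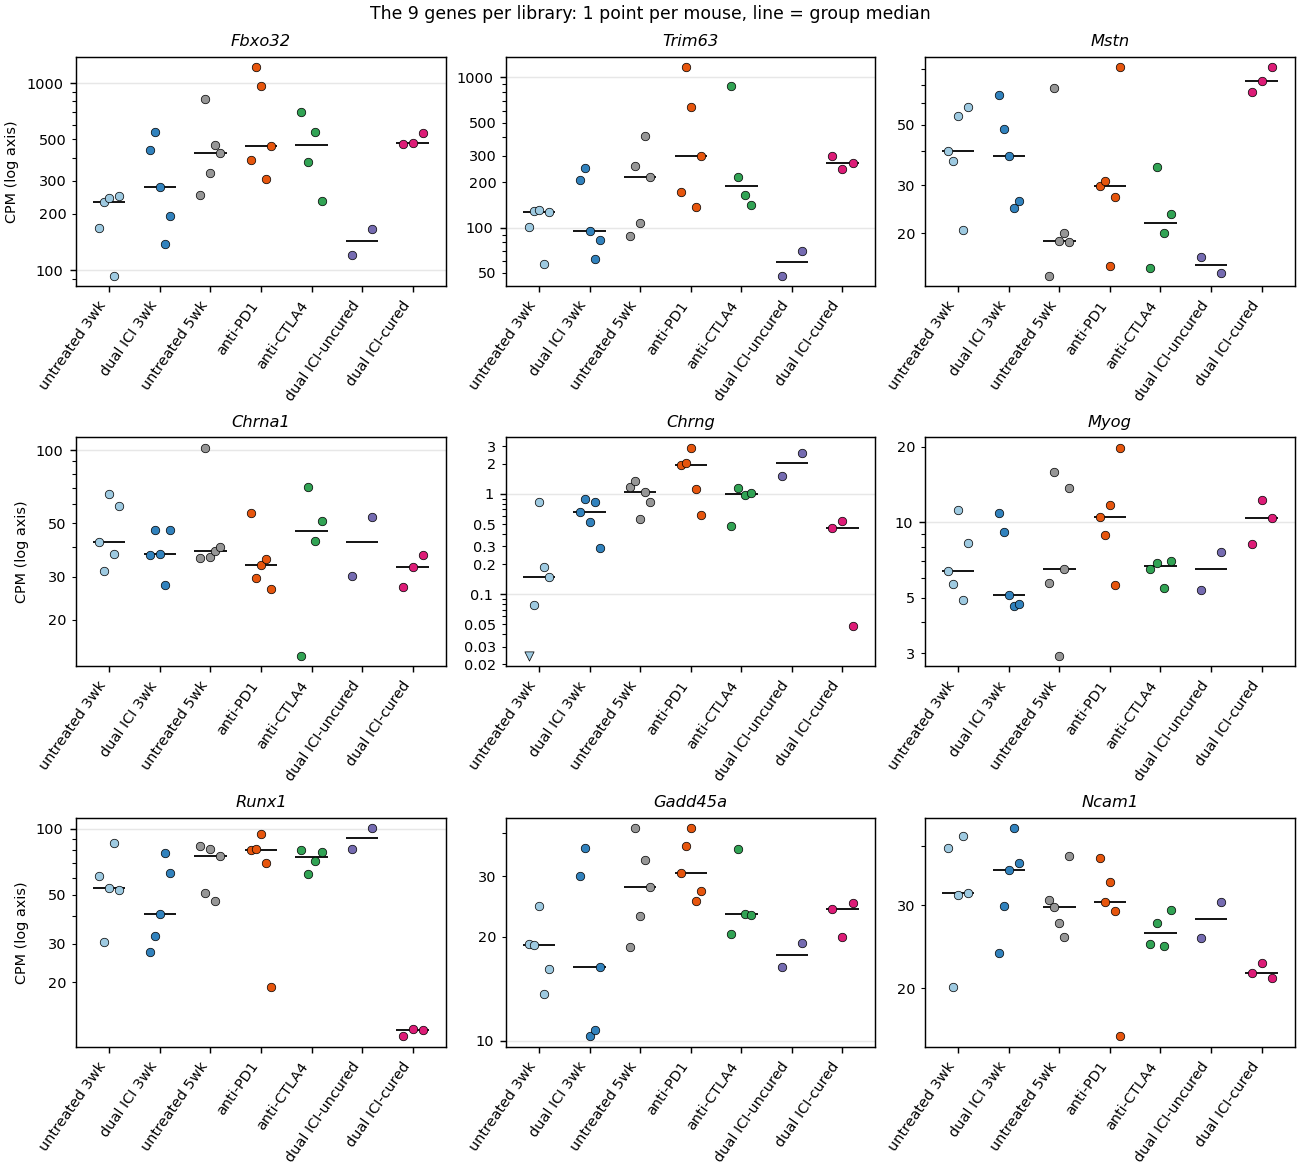
Level of each of the 9 genes in CPM (log axis) in each of the 29 mice, by group, with a line at the group median and a triangle at the bottom for a count of 0. Fbxo32 in untreated 5wk mice lies above untreated 3wk mice, Runx1 in cured mice lies at 11.3 to 12.3 CPM below all other mice, and anti-PD1 mice 2 and 3 and anti-CTLA4 mouse 1 hold the highest Trim63.

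The 3 highest levels of Trim63 in the series were in mice on monotherapy, and so were the 2 highest levels of Fbxo32. Trim63 was at 173, 1163, 632, 138 and 302 CPM in anti-PD1 mice 1 to 5, and at 871, 217, 164 and 142 CPM in anti-CTLA4 mice 1 to 4. Fbxo32 was at 389, 1210, 963, 306 and 462 CPM in the anti-PD1 mice and at 700, 380, 548 and 233 CPM in the anti-CTLA4 mice. Anti-PD1 mice 2 and 3 lay above every untreated 5wk mouse for both genes. Anti-CTLA4 mouse 1 did so for Trim63, while its Fbxo32 lay within the untreated range, below untreated mouse 2 at 819 CPM. The remaining mice of these groups lay within or just below the range of untreated 5wk mice. The same 3 mice were low in muscle transcripts, with Ckm at 2235, 2678 and 1215 CPM and muscle markers at 5.20%, 5.66% and 3.46% of counts. Low muscle transcripts were not confined to mice high in Trim63. Untreated 5wk mouse 5 held 5.17% in the muscle markers, 1921 CPM of Ckm and 216 CPM of Trim63. Uncured mouse 5 held 4.90%, 2351 CPM and 70.3 CPM. Per 1000 Ckm counts, the other anti-PD1 mice held 18.7 to 30.0 of Trim63 and the other anti-CTLA4 mice 24.7 to 36.6. The 3 mice high in Trim63 were at 520.4, 236 and 717. For each 100 counts of Fbxo32 there were 96.1, 65.6 and 124 counts of Trim63 in these 3 libraries, against 31.5 to 86.3 in untreated 5wk mice. From the glucocorticoid and FoxO lists, 2 genes are given here that were chosen after their values were seen. The other genes of these lists are not given for the 3 mice, and no cause was tested. Fkbp5, a glucocorticoid-induced chaperone, was at 197, 94.8 and 191 CPM in the 3 mice and at 50.3, 70.6, 54.2, 192 and 86.8 CPM in untreated 5wk mice, so untreated mouse 4 reached the same level. Foxo1, which encodes a FoxO factor, was at 116, 64.6 and 77.7 CPM in the 3 mice and at 47.3 to 75.2 CPM in untreated 5wk mice, so only anti-PD1 mouse 2 and anti-CTLA4 mouse 1 lay above that range.

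As groups, the monotherapy mice gave no call against untreated 5wk mice in the 9 genes by edgeR. For anti-PD1, 0 genes passed per library and 0 per Ckm, beside 0.0% of all genes, and 0 passed DESeq2 on either scale. At an unadjusted p under 0.05 there were 0 of the 9 per library and 1 per Ckm. For anti-CTLA4 these numbers were the same, again with 0.0% of all genes, except that DESeq2 gave no adjusted p for Trim63 per Ckm. The 1 gene under 0.05 was Trim63 in both cases, with per Ckm log2 differences of 1.81 ± 0.75 (anti-PD1) and 2.09 ± 0.78 (anti-CTLA4) and adjusted p-values of 1.0 and 0.976. These values rested on the 3 mice named above. Without anti-PD1 mice 2 and 3, a choice made after seeing the data, the Trim63 difference per Ckm was -0.86 ± 0.81, and without anti-CTLA4 mouse 1 it was -0.64 ± 0.74. Without anti-PD1 mouse 5, the mouse with few tumor transcripts, the Trim63 difference was 2.10 ± 0.61 and that of Fbxo32 1.35 ± 0.58, with an adjusted p of 1.0 for both. In the sets without the mice high in Trim63, Fbxo32 went from 1.06 ± 0.67 to -0.91 ± 0.75 and from 0.96 ± 0.75 to -0.50 ± 0.68. These mice were the highest of their groups in both genes, so lower differences without them followed from the choice.

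**Figure D2:**
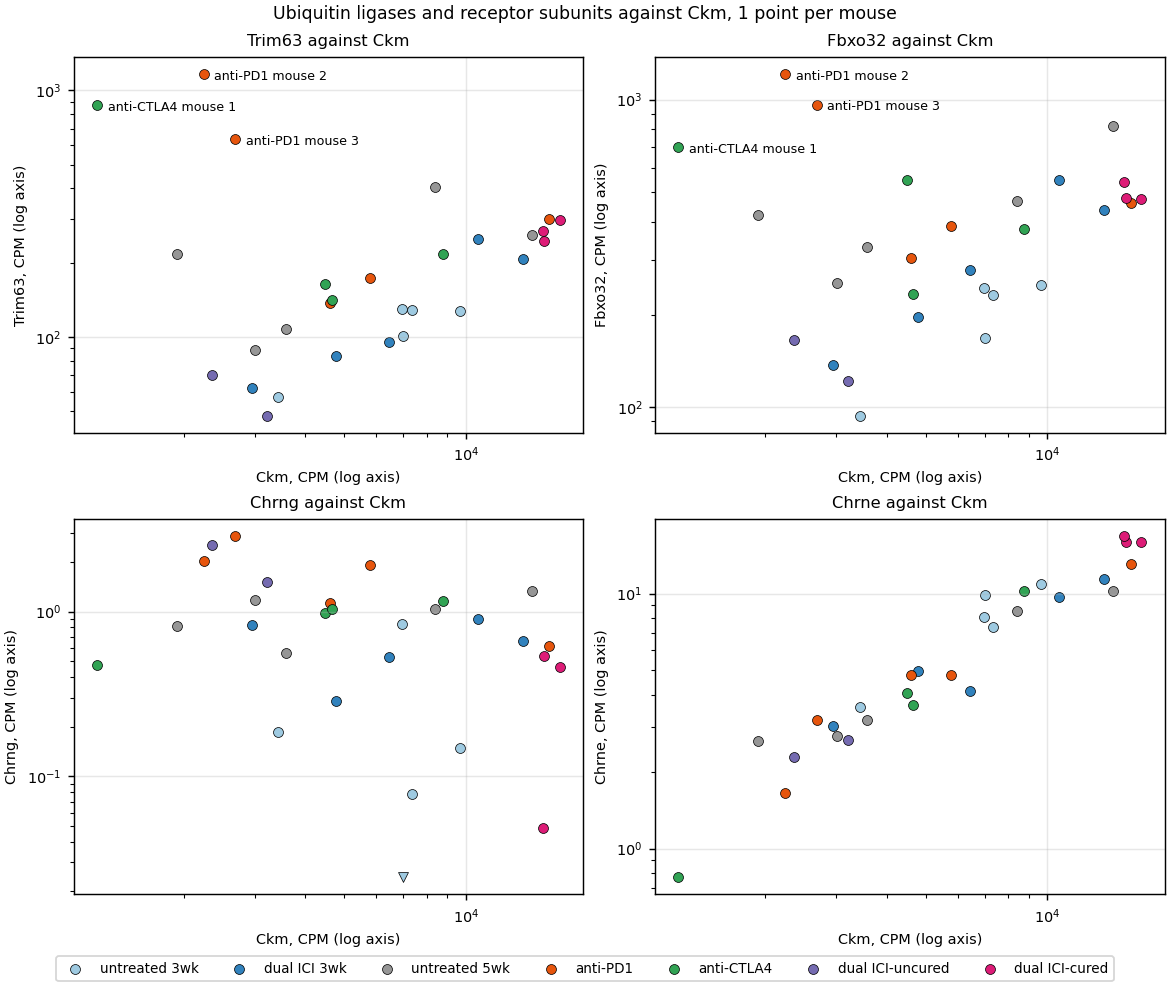
Level of Trim63, Fbxo32, Chrng and Chrne against the level of Ckm, all in CPM on log axes, 1 point per mouse colored by group, with a triangle for a count of 0. Anti-PD1 mice 2 and 3 and anti-CTLA4 mouse 1 combine low Ckm with the highest Trim63, Chrne lies along a line with Ckm, and Chrng does not.

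At 3wk, dual ICI mice gave no call in either ligase. Fbxo32 was at 437, 548, 280, 138 and 196 CPM in dual ICI 3wk mice 1 to 5, and 3 of the 5 lay above every untreated 3wk mouse. Per 1000 Ckm counts it was at 31.6, 51.2, 43.6, 46.7 and 41.0, and 4 of the 5 lay above every untreated 3wk mouse. The log2 difference was 0.69 ± 0.37 per library (edgeR, adjusted p = 0.573) and 0.58 ± 0.29 per Ckm (adjusted p = 1.0). With log2 Ckm as a covariate in the per library fit, the difference of 0.58 ± 0.14 in Fbxo32 passed (adjusted p = 0.0375), and the exact permutation test of the ratio gave p = 0.0159, or 0.184 after adjustment. Trim63 was at 207, 249, 95.4, 62.1 and 83.3 CPM, with 2 mice above and 3 within the untreated range (log2 0.35 ± 0.38, adjusted p = 0.837). Of the 9 genes, 0 passed on either scale in the planned fit, beside 0.574% of all genes per library, 0.471% higher and 0.103% lower, and 0.0% per Ckm. None of the 9 had an unadjusted p under 0.05, and 0 passed DESeq2.

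At 5wk the direction of the ligases in dual ICI mice depended on the scale. The cured mice 2, 3 and 4 held 474, 480 and 539 CPM of Fbxo32 and 298, 246 and 269 CPM of Trim63, within the range of untreated 5wk mice. The uncured mice 1 and 5 held 121 and 165 CPM of Fbxo32 and 48.0 and 70.3 CPM of Trim63, below every untreated 5wk mouse. Per 1000 Ckm counts, cured mice were at 27.7, 30.7 and 34.7 for Fbxo32 and at 17.4, 15.7 and 17.3 for Trim63. These ratios were close to untreated 3wk mice and below every untreated 5wk mouse, though for Trim63 untreated 5wk mouse 2 was at 17.7. On this scale 51.9% of genes did not overlap between cured and untreated 5wk mice. Uncured mice were at 37.7 and 70.3 for Fbxo32 and at 14.9 and 29.9 for Trim63, which overlaps the untreated 5wk range for both genes.

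In cured against untreated 5wk mice, Fbxo32 differed by 0.13 ± 0.36 on the log2 scale per library (edgeR, adjusted p = 0.793) and by -1.72 ± 0.67 per Ckm (adjusted p = 0.0191). Trim63 differed by 0.35 ± 0.44 per library (adjusted p = 0.538) and by -1.50 ± 0.71 per Ckm (adjusted p = 0.051). The Ckm level itself was 17143.5, 15655 and 15535 CPM in cured mice 2, 3 and 4 and 1921 to 14602 CPM in untreated 5wk mice, a log2 difference of 1.36 ± 0.66 that did not pass (adjusted p = 0.116). With 11 other muscle markers in place of Ckm, both ligases passed, at -1.57 ± 0.53 (adjusted p = 0.00748) for Fbxo32 and -1.35 ± 0.58 (adjusted p = 0.0325) for Trim63. Tested as 1 group, the 5 dual ICI mice gave per Ckm differences of -1.34 ± 0.58 for Fbxo32 and -1.32 ± 0.63 for Trim63 with an adjusted p of 0.894 for each. In that comparison 0 of the 9 genes passed edgeR on either scale, beside 0.0% of all genes, and 0 passed DESeq2. At an unadjusted p under 0.05 there were 0 of the 9 per library and 1 per Ckm (Fbxo32). The 5wk mice had received more doses than the 3wk mice, so the interaction of dual ICI with day does not measure time alone. This interaction was -1.92 ± 0.56 for Fbxo32 per Ckm, with an adjusted p of 0.921 from edgeR. Here 0 of the 9 genes passed on either scale, beside 0.0% of 16021 genes per library and 16020 per Ckm. At an unadjusted p under 0.05 there were 0 of the 9 per library, beside 1648 of all genes tested. Per Ckm there were 2 (Fbxo32 and Trim63), beside 79 of all genes tested.

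Across all 9 genes, the cured mice gave most of the calls. Per library, 3 genes passed edgeR against untreated 5wk mice, Mstn higher and Runx1 and Ncam1 lower, beside 44.7% of all genes, 18.0% higher and 26.7% lower. DESeq2 called 4 of the 9. Per Ckm, 7 passed, all lower, beside 68.5% of all genes, 68.3% lower and 0.114% higher, and the median log2 difference was -2.25 over the 9 genes and -2.16 over all genes. A share of 7 in 9 is near that background. The 11 skeletal muscle markers other than Ckm had a median of -0.09 on this scale, with 1 higher (Myh2, the fast myosin IIa) and 0 lower. Markers of leukocytes (5 of 5 tested), gastric epithelium (6 of 6) and mesothelium (4 of 4) were lower, as were 3 of 4 fibroblast markers. Whether the muscle genes among the 9 fell within fibers was not tested. Leaving out cured mouse 4, 3 or 2 left 1, 3 or 2 calls per Ckm. The calls of Fbxo32, Chrna1 and Gadd45a were each lost without any 1 cured mouse and with the replicate block, where the count of calls was 2 (Chrng and Runx1).

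Mstn (chromosome 1, 53061640 to 53068079) encodes myostatin, a secreted brake on muscle growth made by the fibers themselves. It was at 40.0, 36.9, 53.8, 20.6 and 58.0 CPM in untreated 3wk mice, 14.0, 68.4, 18.7, 20.05 and 18.6 CPM in untreated 5wk mice and 65.9, 72.3 and 81.2 CPM in cured mice 2, 3 and 4. Untreated 5wk mouse 2 reached the cured range, and the other 4 lay far below it. Per library, Mstn was 2.63-fold higher in cured than in untreated 5wk mice (log2 1.39 ± 0.48, edgeR adjusted p = 0.0396), and 4.88-fold higher in cured than in uncured mice, which held 16.3 and 14.3 CPM (log2 2.29 ± 0.13, adjusted p = 1.45e-06). Without untreated 5wk mouse 2 the first difference was 2.07 ± 0.15 (adjusted p = 9.67e-06). Without any 1 of the cured mice, or untreated 5wk mouse 1, 3, 4 or 5, the call was lost, as it was with log2 Ckm as covariate. Ckm did not overlap between these groups, so that covariate is not independent of the cured state.

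Relative to Ckm the same gene gave no call. It lay at 3.84, 4.62 and 5.23 counts per 1000 Ckm counts in cured mice, at 5.08 and 6.07 in uncured mice and at 4.65, 4.69, 5.23, 2.39 and 9.69 in untreated 5wk mice. The per Ckm difference between cured and untreated mice was -0.22 ± 0.75 on the log2 scale (adjusted p = 0.784). The highest ratios in the series were 13.9 in anti-PD1 mouse 2 and 12.3 in anti-CTLA4 mouse 1, which were also high in Trim63. Of the 16 genes fixed for the myostatin and activin pathway, 3 rose and 5 fell per library in cured mice, beside 18.0% of all genes higher and 26.7% lower, and these shares are near that background. The 4 with the smallest p were Fstl3 and the inhibin subunits Inhbb and Inhba, which fell, and Smad3, a signal carrier of the pathway, which rose.

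Of the acetylcholine receptor subunits, the alpha subunit was far more abundant than the gamma subunit. Chrna1 (chromosome 2, 73563215 to 73580338) encodes the alpha subunit that every muscle receptor holds. Its level was 41.7, 31.7, 65.7, 37.4 and 59.0 CPM in untreated 3wk mice, 35.9, 102, 36.3, 38.5 and 40.0 CPM in untreated 5wk mice, and 27.2, 32.8 and 37.0 CPM in cured mice. The cured mice overlapped the lower untreated mice, and untreated mouse 2 stood apart from its group. Per 1000 Ckm counts the cured mice lay at 1.59, 2.10 and 2.38, below all of the untreated 5wk mice at 11.9, 7.01, 10.1, 4.59 and 20.8. On this scale 51.9% of genes did not overlap between these groups. Anti-PD1 mouse 5 lay with the cured mice at 1.66. The cured mice differed by -0.64 ± 0.38 on the log2 scale per library (adjusted p = 0.193) and by -2.43 ± 0.83 per Ckm (edgeR, adjusted p = 0.00857).

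Chrng (chromosome 1, 87204657 to 87212694) encodes the fetal gamma subunit, and its counts were very low. There were 0, 2, 23, 6 and 4 counts in untreated 3wk mice, 16, 24, 16, 31 and 9 in dual ICI 3wk mice and 41, 33, 19, 26 and 28 in untreated 5wk mice. Mice on anti-PD1 held 60, 66, 95, 35 and 12 counts, mice on anti-CTLA4 16, 31, 31 and 34, uncured mice 47 and 93 and cured mice 9, 11 and 1. A count of 0 in a library allows up to 3 counts, so the 3wk mice with 0 and 2 counts were not told apart at this depth. The untreated mice overlapped between 3wk and 5wk only through 3wk mouse 3.

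The 3.90-fold higher Chrng per library in untreated 5wk than 3wk mice did not pass edgeR (log2 1.96 ± 0.68, adjusted p = 0.0818), and neither did the 5.85-fold difference per Ckm (2.55 ± 0.76, adjusted p = 0.0575). It passed per library with DESeq2 (adjusted p = 0.0299), in the fit of all 29 libraries (adjusted p = 0.0341) and without untreated 3wk mouse 3 (adjusted p = 0.0192). In cured against untreated 5wk mice Chrng was 2.76-fold lower per library, short of the threshold (log2 -1.47 ± 0.59, adjusted p = 0.0675), and 10.7-fold lower per Ckm (log2 -3.41 ± 1.01, adjusted p = 0.00292). Without cured mouse 4, which had 1 count, the per Ckm value was -2.92 ± 1.27 (adjusted p = 0.0595). The 2 uncured mice lay above every untreated 5wk mouse, at 1.51 and 2.54 against 0.557 to 1.34 CPM, a difference that did not pass (log2 1.03 ± 0.41, adjusted p = 0.734). In uncured against untreated mice, 0 of the 9 genes passed edgeR on either scale, beside 0.0% of all genes, and 0 passed DESeq2. At an unadjusted p under 0.05 there were 0 of the 9 per Ckm and 3 per library (Fbxo32, Trim63 and Chrng). The same 3 genes were the ones whose groups did not overlap per library, as for 18.2% of genes.

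Chrne encodes the epsilon subunit that replaces gamma in mature, innervated muscle. It lay between 0.635 and 1.42 counts per 1000 Ckm counts over all 29 libraries, where Chrng ran from 0 to 1.08. The cured mice held 16.0, 15.9 and 16.9 CPM and untreated 5wk mice 2.78, 10.2, 3.20, 8.55 and 2.64 CPM, without overlap, as for 48.4% of genes. The 3.01-fold difference passed edgeR per library (log2 1.59 ± 0.46, adjusted p = 0.0206). Per Ckm it was 0.04 ± 0.77 (adjusted p = 0.958). For each 100 counts of Chrne, there were 42.3, 13.1, 17.4, 12.1 and 31.1 counts of Chrng in untreated 5wk mice, 56.6 and 111 in uncured mice and 2.88, 3.37 and 0.287 in cured mice. Untreated 3wk mice, at 0, 1.05, 10.3, 5.17 and 1.36, were nearest to the cured mice. The highest value, 122, was in anti-PD1 mouse 2. Another gene in the table overlaps Chrne, and whether strand was used in counting is not given in the sources used here, so reads could have been shared.

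**Figure D3:**
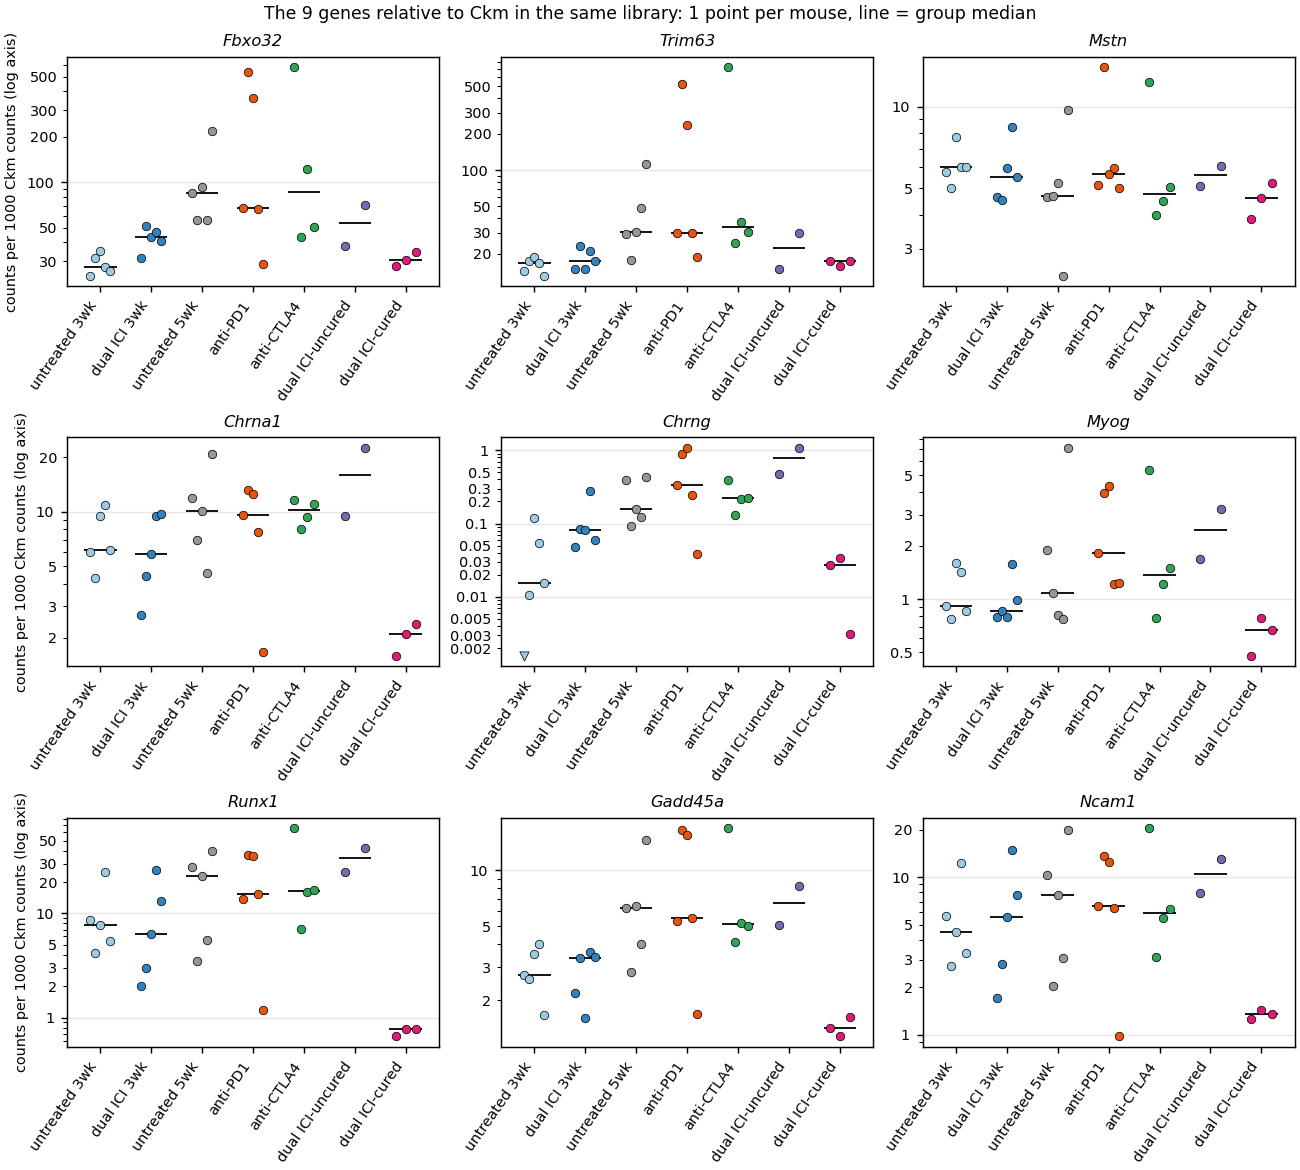
Counts of each of the 9 genes per 1000 Ckm counts of the same library (log axis) in each of the 29 mice, by group, with a line at the group median and a triangle for a count of 0. Cured mice lie lowest among the 5wk groups for Chrna1, Chrng, Runx1 and Gadd45a apart from anti-PD1 mouse 5, and Mstn is at 2.39 to 13.9 with no group set apart.

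Myog (chromosome 1, 134289989 to 134292548) encodes myogenin, the myogenic factor that drives receptor genes after denervation. It was at 6.38, 5.69, 11.2, 4.88 and 8.24 CPM in untreated 3wk mice, at 5.72, 15.9, 2.93, 6.48 and 13.7 CPM in untreated 5wk mice and at 8.19, 12.2 and 10.4 CPM in cured mice. The groups overlapped throughout. Untreated 5wk mouse 5 stood out per 1000 Ckm counts at 7.14, while the other 4 lay at 0.772 to 1.90 and cured mice at 0.478 to 0.781. The per library difference between cured and untreated mice was 0.21 ± 0.49 on the log2 scale (adjusted p = 0.74), and the per Ckm difference of -1.86 ± 0.82 passed edgeR (adjusted p = 0.0356). That call was lost without untreated 5wk mouse 1 or 5, as well as without any 1 cured mouse and with the replicate block, and the adjusted p reached 0.657.

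**Figure D4:**
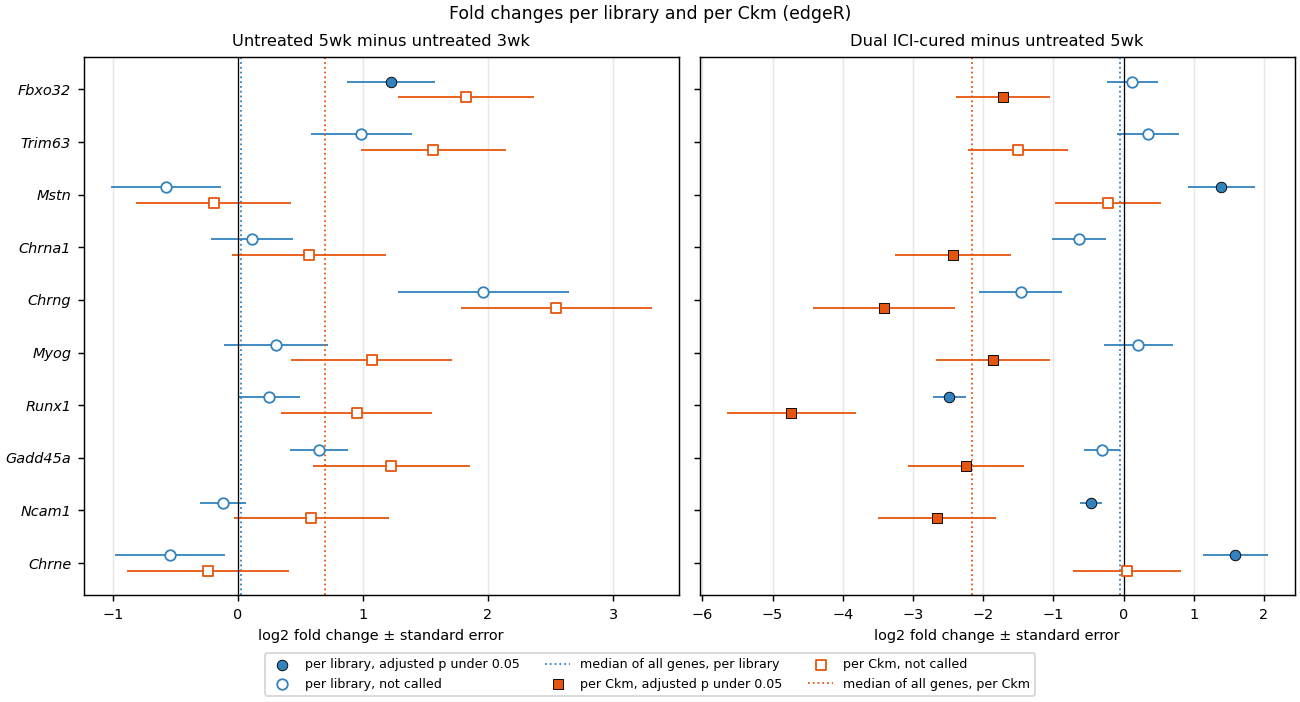
Log2 fold changes with their standard errors from edgeR for the 9 genes and Chrne, per library (circles) and per Ckm (squares), in untreated 5wk against 3wk mice and in cured against untreated 5wk mice. Filled symbols passed at an adjusted p under 0.05, and dotted lines show the median of all genes, which is 0.70 per Ckm in the first comparison and -2.16 in the second.

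Runx1, Gadd45a and Ncam1 are induced in denervated fibers, yet each is also made by other cells, so their values in this mixed tissue are not muscle values alone. Runx1 (chromosome 16, 92601466 to 92826149) encodes a transcription factor of blood and epithelial cells. Against untreated 5wk mice, it was the 1 gene of the 9 that passed the test in cured mice on both scales under every alternative tried. Its level was 11.3, 12.3 and 12.1 CPM in cured mice and 83.4, 50.9, 81.0, 46.8 and 75.5 CPM in untreated 5wk mice. The cured mice lay below all 26 others, and the next was anti-PD1 mouse 5 at 19.1 CPM, against 69.8 to 95.0 CPM in the other anti-PD1 mice. Runx1 was 5.58-fold lower than in untreated 5wk mice per library (log2 -2.48 ± 0.23, adjusted p = 0.000146) and 26.6-fold lower per Ckm (log2 -4.73 ± 0.92, adjusted p = 3.88e-06). The gastric epithelium markers moved with it, with 6 of the 6 tested lower in cured mice and a median log2 difference of -7.06. Of all genes, 26.7% were lower per library and 68.3% per Ckm. The part of these markers in the result was not tested. In untreated mice Runx1 gave no call between 5wk and 3wk (log2 0.25 ± 0.25, adjusted p = 0.517).

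Gadd45a (chromosome 6, 67035096 to 67037457) encodes a stress protein that is induced in wasting muscle and by DNA damage in many cells. Cured mice held 24.1, 19.97 and 25.0 CPM and untreated 5wk mice 18.7, 41.3, 23.0, 33.6 and 27.9 CPM, with overlap and no call per library (log2 -0.31 ± 0.26, adjusted p = 0.338). Per Ckm the difference was -2.25 ± 0.82 (adjusted p = 0.014). Untreated mice at 5wk were 1.57-fold higher than at 3wk, where the levels were 19.1, 19.0, 24.6, 13.7 and 16.1 CPM, and the difference did not pass (log2 0.65 ± 0.23, adjusted p = 0.0886). Another gene in the table overlaps Gadd45a on the other strand.

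Ncam1 (chromosome 9, 49502136 to 49798925) encodes the neural cell adhesion molecule, which nerves, Schwann cells and denervated fibers carry. It was at 21.6, 22.7 and 21.02 CPM in cured mice and at 30.8, 29.7, 27.5, 25.7 and 38.1 CPM in untreated 5wk mice. The groups did not overlap per library, as for 48.4% of genes, and Ncam1 fell 1.38-fold (log2 -0.46 ± 0.16, adjusted p = 0.0377). The call was lost in 8 of 14 alternatives, among them without any 1 cured mouse or without untreated 5wk mouse 1 or 5. The 6 Schwann cell and nerve markers summed to 371 to 623 CPM in cured mice and 162 to 398 CPM in untreated 5wk mice. Of the 6, 3 were higher, among them Prx and Mbp of the myelin sheath, and 1 was lower (Ncmap). Of all genes, 18.0% were higher and 26.7% lower per library. The part of these markers in the result was not tested. An antisense gene in the table overlaps Ncam1, so its count is uncertain.

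Cured and uncured mice differed in 8 of the 9 genes per library by edgeR, beside 70.0% of all genes, 33.1% higher and 36.9% lower, with Fbxo32, Trim63, Mstn, Myog and Gadd45a higher in cured mice and Chrng, Runx1 and Ncam1 lower. The calls of Myog, Gadd45a and Ncam1 were each lost in the fit of all 29 libraries. Each was also lost when some single cured mice were left out. Fbxo32 was 3.54-fold and Trim63 4.66-fold higher, while Ckm was 5.91-fold higher (log2 2.56 ± 0.17, adjusted p = 3.2e-06). Per Ckm 7 genes were lower, beside 94.0% of all genes, 93.2% lower and 0.747% higher, where the median of all genes was -2.65. Trim63 (log2 -0.41 ± 0.24, adjusted p = 0.0939) and Mstn (-0.29 ± 0.24, adjusted p = 0.246) did not pass. With 3 mice against 2 the exact permutation test of a ratio cannot go below p = 0.2.

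Genes of the same pathways were read from fixed lists. In untreated mice at 5wk against 3wk, where 6.24% of all genes were higher and 4.58% lower per library, 3 of 22 other atrophy and FoxO genes rose per library and 0 fell: Mt1 and Mt2, metallothioneins that are also stress and glucocorticoid targets in many cells, and Eif4ebp1, a brake on translation. The same 3 genes rose per Ckm, where 1.2% of all genes did. Mt2 was at 45.7, 20.7, 51.8, 41.8 and 51.8 CPM in untreated 3wk mice and at 128, 163, 117, 378 and 228 CPM in untreated 5wk mice, without overlap, as for 11.6% of genes. Of 10 glucocorticoid-responsive genes 1 rose, Per1. Of 13 myogenic and regeneration genes 2 rose (Tnnt2 and Myl4, isoforms of the fetal sarcomere) and 2 fell (Pax7 and Actc1), and per Ckm only Myl4 rose. The median log2 difference per library was 0.19 for the atrophy list, 0.13 for the glucocorticoid list and 0.03 for the myogenic list, beside 0.02 over all genes.

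In cured against untreated 5wk mice, where 18.0% of all genes were higher and 26.7% lower per library, 6 of 13 receptor and neuromuscular junction genes rose per library and 1 fell. Lrp4, Colq and Lamb2, which organize the junction on the fiber side, rose, and Agrn, which nerves and epithelia also make, fell. All 4 satellite cell genes tested rose (Pax7, Myf5, Megf10 and Calcr). Of the 22 atrophy and FoxO genes 1 rose (Fbxo30) and 2 fell (Mt1 and Mt2), and of the 10 glucocorticoid-responsive genes 3 rose, among them Klf9 and Nr3c1, the glucocorticoid receptor, and 2 fell (Ddit4 and Fkbp5). Of 13 other denervation-responsive genes 5 rose, among them Dach2, Kcnn3 and Ampd3, and Dclk1 fell. Medians were 0.75, 2.02, 0.05, 0.78 and 0.60 on the log2 scale for these lists, beside 1.39 for the 12 skeletal muscle markers and -0.05 over all genes. Per Ckm, 0 satellite cell genes passed (median 0.09), and 15 of the 22 atrophy and FoxO genes were lower (median -1.98) beside the 68.5% of all genes given above. In dual ICI 3wk, anti-PD1, anti-CTLA4 and uncured mice, 0 genes of these lists passed on either scale.

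The genes whose levels followed each of the 9 most closely, once the level of Ckm was taken out, were sought over the 29 libraries. The measure was Pearson's r between residuals of log2 CPM on log2 Ckm CPM, among 14338 genes, and it is a description across libraries that share groups, tumor content and depth. For Fbxo32 the nearest were Klhl38 (r = 0.913), Sqstm1 (0.887) and Cnksr1 (0.883). For Trim63 they were Klf15 (0.928), which encodes a glucocorticoid-induced factor, Fbxo31 (0.902) and Tmbim1 (0.892). Genes near Mstn included Rprd1b (0.88) and Txlnb (0.875). Chrng went with Myl4 (0.798), Tnnt2 (0.781) and Myh3 (0.765), all of the embryonic or fetal sarcomere. For its receptor partner Chrna1 the nearest were Unc13b (0.809), Ccdc24 (0.801) and Kif26b (0.792), and Myog was nearest to Psmd11 (0.744), Chrnb1 (0.743), the beta subunit, and Fam174a (0.738). Runx1 went with Sh3rf1 (0.946), F2rl1 (0.945) and Kif26b (0.943), Gadd45a with Dnttip1 (0.872), Eif4ebp1 (0.864) and Pold4 (0.848), and Ncam1 with Tnfrsf23 (0.754), Spcs3 (0.748) and Htr2b (0.747).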

How the data were processed

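RNA was measured by paired-end sequencing of 150 bp reads in 29 libraries, 1 per mouse. The authors aligned the reads to mm10, and the table they deposited holds whole-number counts for each gene symbol, not normalized. The submitters' processing notes name STAR 2.7.0f and featureCounts 1.6.4, while the study's methods name HTSeq as the counter. The annotation and the strand setting are not given in the sources used here. Totals were 25989217 to 31219650 counts per library. The labels call the tissue tumor tissue, and the methods describe peritoneum.

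Groups came from the labels, and the cured or uncured state from the study's mouse numbers. Counts were tested with edgeR 4.0.16 in R 4.3.3 (filterByExpr, glmQLFit, glmQLFTest, two-sided, Benjamini-Hochberg over all genes tested, threshold 0.05), with only the groups compared in a fit. The per library fits used TMM, and the per Ckm fits used the Ckm count as library size. Standard errors are the log2 fold change divided by the square root of F. Ratios to Ckm were log2 transformed with a pseudocount of 0.5 counts and tested by exact two-sided permutation in Python 3.11.15. The fits were run on simulated data in which the expected share of Ckm was the same in every library. The simulation therefore did not test the per Ckm fits where muscle content differs, as it does here. Comparisons at 5wk share the untreated mice. Nothing states that mice were housed or treated separately, so p-values measure the spread between these mice.

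The 9 genes, lists and tests were chosen with earlier results of these data known. Genes named from a list were up to 4 that passed with the smallest p in the comparison described. Fkbp5 and Foxo1 in the monotherapy mice are the exception. Test results for Ckm and Chrne are given for some of the comparisons only. Genes most like each of the 9 were the 3 with the highest r among genes with a mean of at least 1 CPM, and a few results under these rules are not reported here. Alternatives were DESeq2 1.42.0, RLE normalization, no filter, log2 Ckm as covariate, 11 other muscle genes in place of Ckm, all 29 libraries in 1 fit, the replicate block, a pseudocount of 1 and each mouse left out. Leaving out anti-PD1 mice 2 and 3, and mice 2, 3 and 5, was added after seeing the data. Gene positions are from GENCODE on GRCm38, and promoters from RefSeq on GRCm38.p6.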

Additional observations from a re-analysis of the deposited data

Results flagged for a closer look

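Single mice stood far from the rest of their group in 9 of 108 tests on the 9 genes (Dixon's gap over range, groups of 4 or 5), where chance flags about 1 in 20. Untreated 5wk mouse 2 was high in Mstn, with a log2 CPM of 6.1 against 4.33 in the next mouse, and in Chrna1, with 6.68 against 5.32. Its muscle markers took 18.6% of its counts, against 5.17% to 12.7% in the other 4 untreated 5wk mice. Anti-PD1 mouse 5 was low in Runx1, with a log2 CPM of 4.26 against 6.13, and its log2 ratios to Ckm were low for Runx1 (-9.72 against -6.17) and Chrna1 (-9.23 against -7.02). This mouse held 46.6 CPM of gastric epithelium markers. Anti-PD1 mouse 2 had a high log2 ratio to Ckm of Mstn, -6.17 against -7.4. Anti-CTLA4 mouse 1 had high log2 ratios to Ckm of Trim63 (-0.48 against -4.77) and Gadd45a (-5.9 against -7.58), with the lowest Ckm of the series. Among the 5 dual ICI 5wk mice, mouse 5 had a log2 ratio of Trim63 of -5.06 against -5.85 in the next. The causes were not tested.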

How the results depend on the processing

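Numbers of the 9 genes that passed changed with the processing as follows. Shares of all genes that passed under each alternative are not given here, so these numbers have no background beside them. With log2 Ckm as covariate, per library counts went from 0 to 1 in dual ICI against untreated 3wk mice and from 1 to 3 in untreated 5wk against 3wk mice. In cured against uncured mice they went from 8 to 0, where Chrng (1.32, adjusted p = 0.965) and Ncam1 (1.28, adjusted p = 0.79) also reversed. Ckm did not overlap between the cured (15535 to 17143.5 CPM) and uncured mice (3213 and 2351 CPM). That fit therefore cannot tell the cured state from muscle content. DESeq2 gave 2 per library and 1 in place of 0 per Ckm in untreated 5wk against 3wk mice. The fit of all 29 libraries gave 2 per library there, and 5 in cured against uncured mice. The replicate block gave 0 per library in untreated 5wk against 3wk mice and 2 in place of 7 per Ckm in cured against untreated mice (Runx1 and Chrng). Of 24 pairs of mice with the same replicate number, 11 had a correlation over 0.1 in their deviations from group means (range -0.733 to 0.778). These deviations also carry muscle and tumor content, so the check cannot decide whether the numbers pair the mice. Most column names of the dual ICI 3wk libraries carry other numbers than their titles. The replicate block used the title numbers, so for that group it matched numbers that the column names do not share. No paired fit exists for cured against uncured mice, which share no number. With each mouse left out, counts ranged from 1 to 3 per library and from 1 to 8 per Ckm in cured against untreated mice, from 0 to 2 and from 0 to 3 in untreated 5wk against 3wk mice, and from 5 to 7 per library in cured against uncured mice. Fbxo32 in untreated 5wk against 3wk mice lost its call in 9 of 16 alternatives (adjusted p up to 0.107), and Mstn and Ncam1 per library in cured against untreated mice in 8 of 14 each, while Runx1 lost none on either scale. Of 1735 uncalled values, 162 took the other sign. The causes were not tested. Depth limits Chrng, and group sizes of 2 to 5 limit the rest.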
